A study of Homo sapiens with 8 samples.

Results

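The genes described here encode 9 enzymes that make or interconvert arginine, asparagine, glutamine and proline: ASS1, ASL and ARG2 for arginine, ASNS and GOT1 for asparagine and aspartate, GLUL and GPT2 for glutamine and glutamate, and ALDH18A1 and PYCR1 for proline. They were selected by gene symbol from 60332 gene rows, as amino acid enzymes among which ASS1 was higher after the enhancer knockdown in both cell lines. The knockdown values of these genes therefore chose them and are given as a description, without a test. All 9 have a single row and a mean of at least 1 FPKM (fragments per kilobase of transcript, scaled to the reads of the library), so all of them were among the 15020 genes compared.

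The 8 RNA libraries came from the established Ewing sarcoma cell lines RD-ES and SK-N-MC, 2 control and 2 eKD2 of either. Cells of the eKD2 groups expressed dCas9-KRAB, a catalytically dead Cas9 joined to a transcriptional repressor domain, and a guide RNA aimed next to the GGAA repeat in an enhancer of LOXHD1. Per the labels, the controls had been infected with the dCas9-KRAB virus without a guide, whereas the study's text calls them parental. Infection was at a multiplicity of 10, selection was with puromycin at 1 µg/ml, and the medium, shared by all groups, contained L-glutamine. The study calls the 2 libraries of a group biological replicates. The labels do not say whether they came from separate cultures, so what the spread between them covers is not known in detail. LOXHD1, the targeted gene, stood at 21.4 and 21.2 FPKM in RD-ES control libraries against 1.04 and 1.02 FPKM with eKD2. For SK-N-MC these were 159 and 169 FPKM against 11 and 12 FPKM. Depth, estimated from the value of a single read in genes of low FPKM, ranged from 7.5 M reads (M, mega) in RD-ES eKD2 replicate 1 to 29.9 M in SK-N-MC control replicate 1. This estimate rests on the step shared by 28.6% to 40.0% of the genes used and is rough. All 9 Ewing sarcoma markers examined, CD99 and NKX2-2 among them, were measured above the filter, while the muscle marker MYOG was at 0 throughout. The epithelial gene EPCAM and the leukocyte gene PTPRC also passed the filter, so passing it does not by itself mark a cell type. EPCAM was at 0.3 to 0.971 FPKM in RD-ES and at 2.96 to 4.54 FPKM in SK-N-MC. PTPRC was at 0 to 0.0173 FPKM in RD-ES and at 19.2 to 22.6 FPKM in SK-N-MC, alike in control and eKD2.

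Cells can take up these amino acids or make them from glucose and glutamine carbon. ASS1 joins citrulline and aspartate, ASL splits the product into arginine and fumarate, and ARG2, the mitochondrial arginase, breaks arginine down to ornithine and urea. ASNS moves the amide nitrogen of glutamine onto aspartate to make asparagine, and GOT1 is the cytosolic aspartate aminotransferase. GLUL makes glutamine from glutamate and ammonia, and GPT2 is the mitochondrial alanine aminotransferase. ALDH18A1 turns glutamate into the proline precursor pyrroline-5-carboxylate, which PYCR1 reduces to proline. ASNS is a classical target of the amino acid response, in which the transcription factor ATF4 binds a C/EBP-ATF response element. Loss of ASS1 makes many tumours dependent on external arginine, which is the basis of arginine-depriving treatment.

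Stretches of promoter sequence are shown for the members whose window held 1 of 3 searched motifs. The windows (RefSeq, GRCh38.p14, 250 bases before to 50 after a start) covered 7 of the 9 genes, in 10 windows, and each was found once in GRCh37 by exact match. Searched on both strands were the C/EBP-ATF response element TGATGNAA, the E-box CACGTG, a site of MYC and related factors, and GGAAGGAA, 2 adjoining copies of the ETS core GGAA. Each line gives 30 bases 5′ to 3′ on the gene's strand, and capitals mark the motif.
ASNS, response element: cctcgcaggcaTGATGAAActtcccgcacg
GOT1, response element read on the other strand: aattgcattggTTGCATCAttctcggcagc
ASS1, E-box: gcgcgtccccgcCACGTGtccccggtcacc
ALDH18A1, E-box: gggctggcccgcCACGTGgagcgctggctt
ASNS, tandem ETS core: ggggctgctccGGAAGGAAggggtggagga

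Coordinates (GRCh37) are those of the printed stretches, and distances and annotations those of the motifs. The stretch with the ASNS response element is chr7:97501770-97501799 on the minus strand, and the element begins 68 bases before the start. It is upstream of 15 of the 17 annotated ASNS transcripts and exonic in 2. The GOT1 element, in chr10:101190561-101190590 (minus strand), is 198 bases before the start and upstream of all 3 transcripts. The ASS1 E-box, in chr9:133320265-133320294 (plus strand), is 71 bases before a start and upstream of all 10 transcripts, and that of ALDH18A1, in chr10:97416587-97416616 (minus strand), is 136 bases before the start and upstream of all 5. The tandem ETS core of ASNS, in chr7:97501572-97501601 (minus strand), is 113 bases before its alternative start, upstream of 10 transcripts and intronic in 7. Of all 35116 windows of this length, 3.62% hold the response element, 7.26% the E-box and 3.67% the tandem ETS core. Matches were found in 2, 2 and 1 of the 7 members with a window. These members have 10 windows, so their count by gene is not like the share by window. A match describes letters and does not show that a factor binds there.

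ASS1 was about 2-fold higher in eKD2 than in control cells of both lines, from levels that differed widely between the lines. ASS1 (chr9:133320348-133376661, plus strand) measured 5.86 and 6.39 FPKM in RD-ES control libraries and 11.9 and 13.5 FPKM in the eKD2 libraries. The SK-N-MC controls held 136 and 156 FPKM and the eKD2 libraries 314 and 342 FPKM. Both eKD2 libraries of each line lay above both controls, and every SK-N-MC library lay above every RD-ES library. Group means were 6.12 ± 0.378, 12.7 ± 1.12, 146 ± 14.4 and 328 ± 20.3 FPKM (SD, n = 2 each) in that order. The ratio of means was 2.07 for RD-ES and 2.25 for SK-N-MC. On the log2(FPKM + 1) scale used for all differences, which understates the change of low genes, the difference was 0.94 ± 0.106 (standard error of the limma fit) for RD-ES cells and 1.17 ± 0.106 for SK-N-MC cells. Without 1 library at a time it ranged from 0.86 to 1.02 and from 1.07 to 1.27. Among the genes compared, ASS1 was at percentile 34.9 of expression in RD-ES control and 49.1 with eKD2, and for SK-N-MC at 94.5 and 98.1. In bulk RNA, more RNA per cell and more cells that express the gene cannot be told apart. ASS1, ASNS and GLUL have processed pseudogenes, and how reads shared with such copies were assigned is not given in the sources used here.

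**Figure D1:**
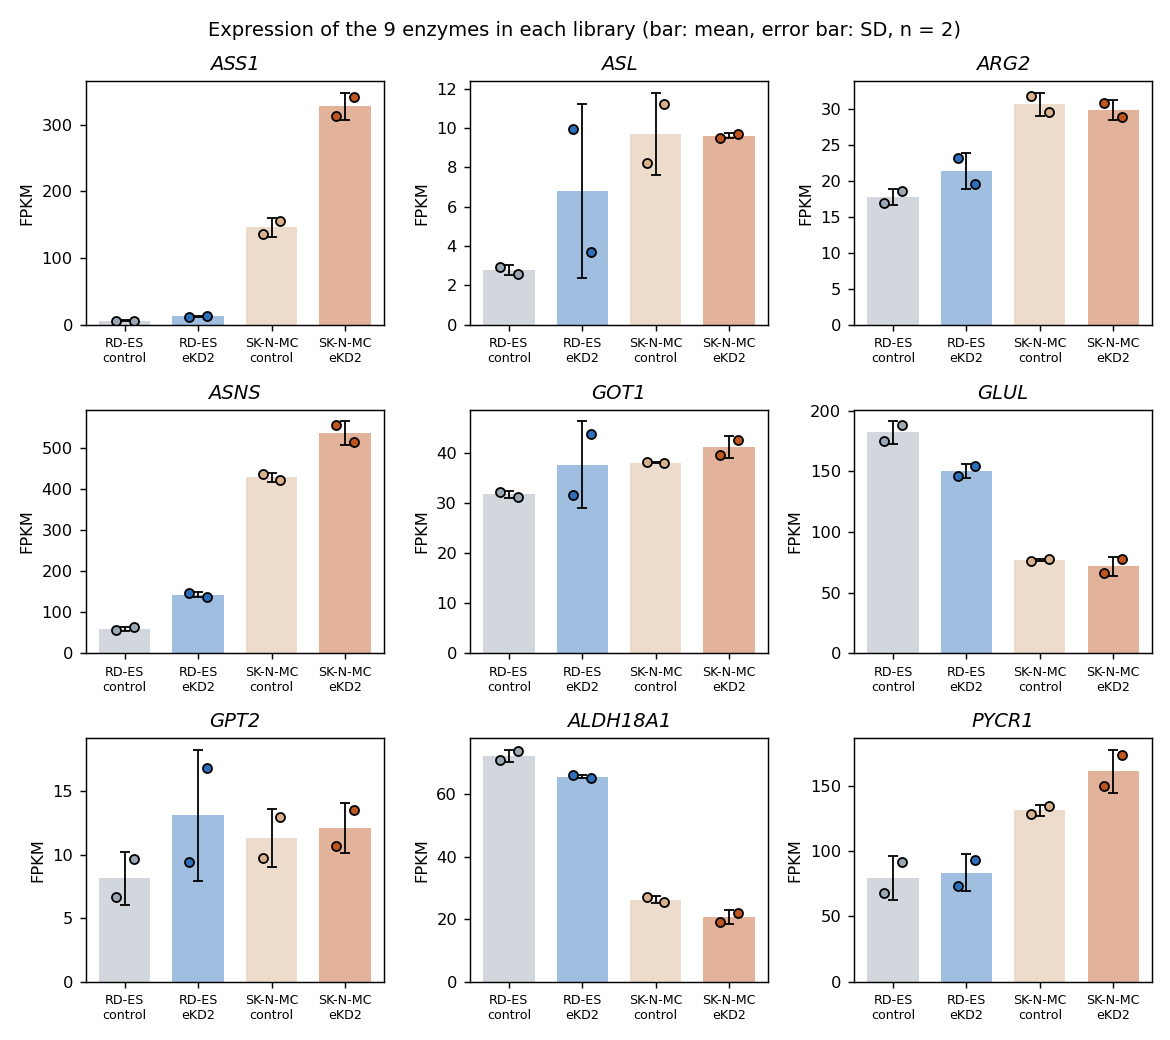
FPKM of the 9 enzymes (y axis, from 0, a scale for each gene) in RD-ES control, RD-ES eKD2, SK-N-MC control and SK-N-MC eKD2. Points are libraries, bars means and error bars SD (n = 2). ASS1 and ASNS were higher in both eKD2 libraries of each line, whereas the RD-ES eKD2 libraries were far apart for ASL (9.93 and 3.68 FPKM), GPT2 (9.46 and 16.8 FPKM) and GOT1 (31.5 and 43.7 FPKM).

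ASL, the step after ASS1, did not follow it in SK-N-MC, and in RD-ES its difference rested on a single library. ASL (chr7:65540787-65559684, plus strand) measured 2.94 and 2.59 FPKM in the RD-ES controls and 9.93 and 3.68 FPKM in the eKD2 libraries. Both eKD2 values lay above the controls, but they differed from each other more than the lower one did from the controls. The log2 difference was 0.93 ± 0.378, and 0.32 without eKD2 replicate 1, which holds the value of 9.93 FPKM and is the shallowest library. The SK-N-MC controls held 8.23 and 11.2 FPKM of ASL and the eKD2 libraries 9.51 and 9.69 FPKM, so the groups overlapped, and the log2 difference was -0.0007 ± 0.378. ASS1 exceeded ASL in every library. The ASS1 to ASL ratio of FPKM was 1.99 and 2.47 in the RD-ES controls and 1.2 and 3.66 with eKD2. It was 16.5 and 13.9 in SK-N-MC control and 33.0 and 35.3 in SK-N-MC eKD2. In SK-N-MC, the 2 genes of arginine synthesis thus stood further apart in both eKD2 libraries than in the controls.

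ARG2, on the breakdown side, measured 17.0 and 18.6 FPKM in the RD-ES controls against 23.2 and 19.6 FPKM with eKD2. Both eKD2 values were above the controls, with a mean 1.2-fold as high and a log2 difference of 0.25 ± 0.106. The SK-N-MC controls held 31.9 and 29.6 FPKM and the eKD2 libraries 30.9 and 28.9 FPKM, with overlapping groups and a log2 difference of -0.039 ± 0.106 that was 0.0054 after quantile normalization and 0.014 without control replicate 1. ARG2 (chr14:68086637-68118425, plus strand) overlaps VTI1B on the other strand, and the library kit does not mark strand, so reads from the overlap cannot be told apart.

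ASNS was higher in eKD2 cells of both lines, and the RD-ES difference was the widest of the 9 genes on the log2(FPKM + 1) scale. ASNS (chr7:97480989-97501854, minus strand) measured 56.1 and 62.9 FPKM in the RD-ES controls against 147 and 138 FPKM with eKD2. Values in SK-N-MC were 437 and 422 FPKM for control libraries and 557 and 516 FPKM for eKD2. The eKD2 libraries lay above the controls in both lines without overlap. The RD-ES means were 59.5 ± 4.77 and 143 ± 6.18 FPKM and the SK-N-MC means 429 ± 10.4 and 537 ± 28.9 FPKM (SD, n = 2 each), ratios of 2.4 and 1.25. The log2 difference was 1.25 ± 0.0784 for RD-ES and 0.32 ± 0.0784 for SK-N-MC, and the latter minus the former was -0.93 ± 0.111. For ASS1 the same subtraction gave 0.23 ± 0.15. Among all genes compared, the difference of ASNS was at percentile 98.8 for RD-ES and 90.5 for SK-N-MC, against 98.3 and 98.6 for ASS1.

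GOT1, which makes or uses the aspartate that ASNS and ASS1 need, overlapped between the groups in RD-ES and was slightly higher in SK-N-MC eKD2. GOT1 (chr10:101156627-101190381, minus strand) measured 32.2 and 31.2 FPKM in the RD-ES controls and 31.5 and 43.7 FPKM with eKD2, which overlapped. Its log2 difference there was 0.22 ± 0.149 and -0.0098 without eKD2 replicate 2. SK-N-MC controls held 38.1 and 37.9 FPKM and the eKD2 libraries 39.5 and 42.6 FPKM, a log2 difference of 0.11 ± 0.149 with both eKD2 values above the controls. The ASNS to GOT1 ratio of FPKM was 1.74 and 2.02 in the RD-ES controls and 4.68 and 3.16 with eKD2, and lay between 11.1 and 14.1 in the SK-N-MC libraries.

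GLUL, glutamine synthetase, was lower in RD-ES eKD2 than in control. GLUL (chr1:182347233-182361341, minus strand) measured 175 and 188 FPKM in the RD-ES controls against 146 and 154 FPKM with eKD2, with no overlap. The mean was 17.5% below that of the control, and the log2 difference was -0.27 ± 0.0913. The SK-N-MC controls held 76.1 and 77.6 FPKM and the eKD2 libraries 65.9 and 77.3 FPKM, which overlapped, with a log2 difference of -0.11 ± 0.0913 that was 0.0076 without eKD2 replicate 1.

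GPT2 (chr16:46918274-46965201, plus strand) measured 6.68 and 9.64 FPKM in the RD-ES controls against 9.46 and 16.8 FPKM with eKD2. The groups overlapped, and the log2 difference of 0.59 ± 0.301 lay between 0.21 and 0.98 without 1 library at a time. Values in SK-N-MC were 9.72 and 13.0 FPKM for control libraries and 10.7 and 13.5 FPKM for eKD2, again overlapping, with a log2 difference of 0.095 ± 0.301. In SK-N-MC the 2 libraries of each group were further apart than the group means.

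ALDH18A1, which opens proline synthesis, was lower in eKD2 cells of both lines, and PYCR1, which ends it, was not. ALDH18A1 (chr10:97365698-97416468, minus strand) measured 70.9 and 73.7 FPKM in the RD-ES controls against 66.0 and 65.2 FPKM with eKD2. SK-N-MC controls held 27.1 and 25.5 FPKM and the eKD2 libraries 19.0 and 22.1 FPKM. Neither line showed overlap. The means were 9.31% and 21.8% below the controls, with log2 differences of -0.14 ± 0.0899 and -0.34 ± 0.0899. The RD-ES difference was between -0.17 and -0.11 without 1 library at a time, and that of SK-N-MC between -0.45 and -0.24.

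PYCR1 (chr17:79890260-79900288, minus strand) measured 67.7 and 91.6 FPKM in the RD-ES controls against 73.2 and 93.1 FPKM with eKD2. These overlapped, and the log2 difference of 0.068 ± 0.176 became -0.0035 after median scaling and lay between -0.15 and 0.28 without 1 library at a time. SK-N-MC controls held 128 and 134 FPKM and the eKD2 libraries 150 and 173 FPKM, with no overlap, a ratio of means of 1.23 and a log2 difference of 0.29 ± 0.176. The PYCR1 to ALDH18A1 ratio of FPKM was 0.954 and 1.24 in the RD-ES controls and 1.11 and 1.43 with eKD2. Corresponding SK-N-MC ratios were 4.73 and 5.26, then 7.89 and 7.82. The groups did not overlap in SK-N-MC and did in RD-ES. PYCR1 overlaps MYADML2 on the same strand. ASL, ASNS and ASS1 also overlap other annotated genes on the same strand, for ASS1 the small RNA gene snoU13. ASNS and PYCR1 overlap genes on the other strand as well. Gene coordinates printed here are those of the annotation. The measured rows of ASL, ARG2 and PYCR1 reach further, to 65629998, 68162531 and 79905477.

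**Figure D2:**
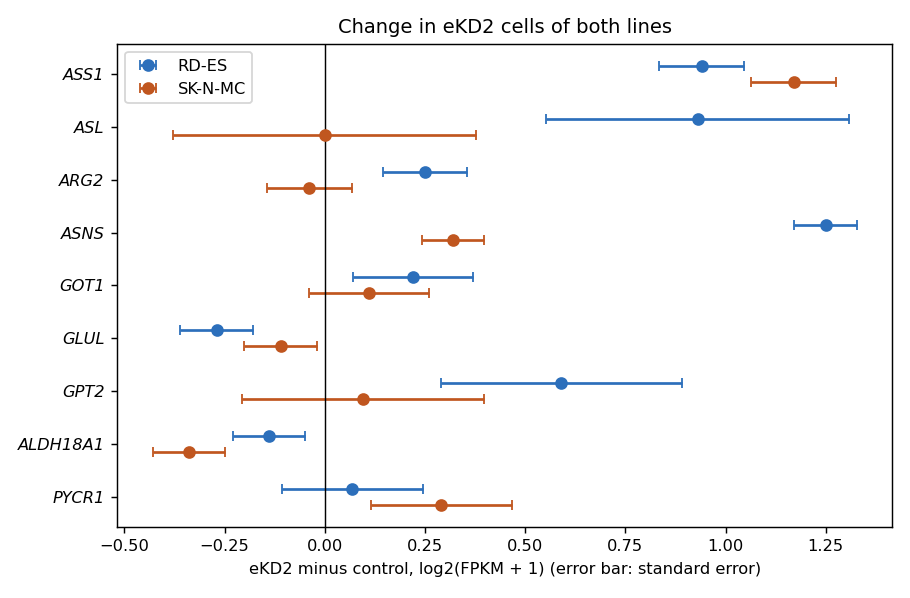
Difference between eKD2 and control on the log2(FPKM + 1) scale (x axis) for the 9 enzymes in RD-ES (blue) and SK-N-MC (orange). Points are estimates of the limma fit and bars their standard errors. ASS1 lay at 0.94 and 1.17, ASNS at 1.25 and 0.32, and ALDH18A1 at -0.14 and -0.34.

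Between eKD2 and control, 4 of the 9 genes were higher without overlap in RD-ES (ASS1, ASL, ARG2 and ASNS), 2 were lower (GLUL and ALDH18A1) and 3 overlapped. Of all genes compared, 24.4% were higher and 15.2% lower in this way. In SK-N-MC 4 were higher (ASS1, ASNS, GOT1 and PYCR1), 1 was lower (ALDH18A1) and 4 overlapped, beside 22.3% and 25.3% of all genes. ASS1 and ASNS were higher in both lines, as were 5.67% of all genes, and ALDH18A1 was lower in both, as were 4.07%. The median log2 difference of the 9 was 0.25 for RD-ES and 0.095 for SK-N-MC, and that of all genes 0.033 and -0.0059. Since the genes were chosen by these differences, nothing is read from the counts.

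The difference between the cell lines, averaged over control and eKD2, was not used to choose the genes and was tested. At a limma adjusted p under 0.05, 5 of the 9 genes were higher in SK-N-MC and 2 were lower. This is 77.8% of them, where 68.8% of all genes differed between the lines (36.3% higher and 32.5% lower), so the share is near the background. The sizes of the differences ran on the log2 scale from 0.19 (GPT2) and 0.2 (GOT1) to 4.47 (ASS1). In ASS1 the mean of the 4 SK-N-MC libraries was 25.2-fold that of RD-ES, a log2 difference of 4.47 ± 0.0751 (limma adjusted p = 4.8e-07), which ranks 70 of the 15020 genes by size. ASNS was 4.78-fold higher (log2 difference 2.37 ± 0.0554, limma adjusted p = 8.6e-07). PYCR1 was 1.8-fold and ARG2 1.55-fold higher (limma adjusted p = 0.0012 and 5.1e-04), each without overlap between the lines.

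ASL was 2.02-fold higher in SK-N-MC (log2 difference 1.03 ± 0.267, limma adjusted p = 0.013), but the libraries overlapped through RD-ES eKD2 replicate 1. Without RD-ES control replicate 2, SK-N-MC control replicate 2 or either SK-N-MC eKD2 library its adjusted p was between 0.05 and 0.056 and no longer past the threshold. Without RD-ES eKD2 replicate 1 the log2 difference was 1.34 (limma adjusted p = 7.1e-04), and the mean was 3.14-fold higher in SK-N-MC. In the opposite direction, ALDH18A1 was 2.94-fold lower in SK-N-MC (log2 difference -1.53 ± 0.0636, limma adjusted p = 6.0e-06) and GLUL 2.24-fold lower (-1.15 ± 0.0646, limma adjusted p = 1.9e-05). GOT1 (log2 difference 0.2 ± 0.105, limma adjusted p = 0.14) and GPT2 (0.19 ± 0.213, limma adjusted p = 0.46) did not pass, although GOT1 did without RD-ES eKD2 replicate 2 (limma adjusted p = 0.0048).

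In the control libraries alone the ratio of SK-N-MC to RD-ES was 23.8 for ASS1, 7.22 for ASNS and 3.51 for ASL. Among eKD2 libraries it was 25.8, 3.76 and 1.41. These ratios contain the values that chose the genes and are given without a test. The eKD2 ratio of ASL was 2.61 without RD-ES eKD2 replicate 1.

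**Figure D3:**
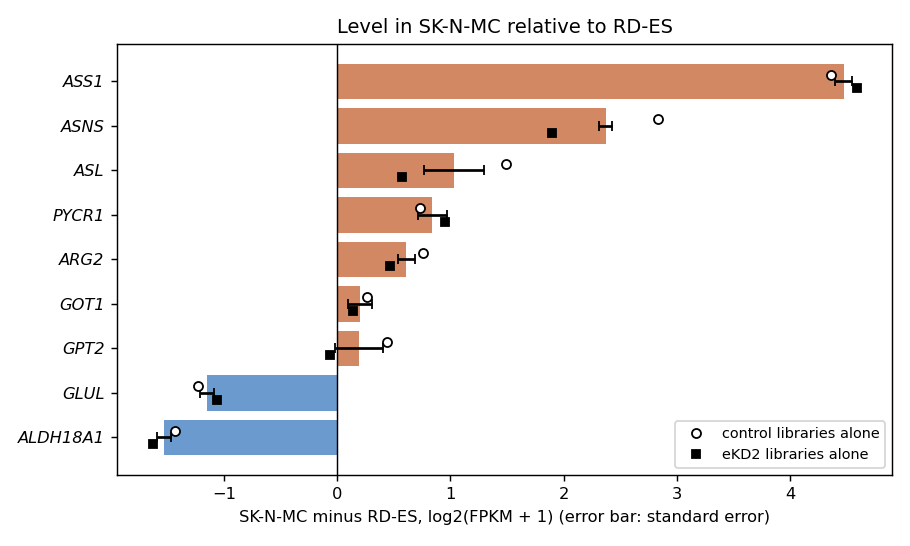
SK-N-MC minus RD-ES on the log2(FPKM + 1) scale (x axis) for the 9 enzymes, averaged over control and eKD2. Bars are the limma estimate and error bars its standard error. Open circles show the control libraries alone and filled squares the eKD2 libraries alone. ASS1 (4.47) and ASNS (2.37) stood furthest above 0, and ALDH18A1 (-1.53) furthest below.

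FPKM is normalized to length, so the levels can be ordered between genes. Reads shared with overlapping genes and with pseudogenes, described above, limit this order. In RD-ES control, GLUL (182 FPKM) stood highest, followed by PYCR1 (79.6), ALDH18A1 (72.3), ASNS (59.5), GOT1 (31.7), ARG2 (17.8), GPT2 (8.16), ASS1 (6.12) and ASL (2.77 FPKM). Only PYCR1 and ALDH18A1 among these neighbours overlapped. In RD-ES eKD2, ASNS (143 FPKM) overlapped with GLUL (150 FPKM) at the top, and ASS1 (12.7 FPKM) with GPT2 (13.1 FPKM) near the bottom. In SK-N-MC control the order was ASNS (429 FPKM), ASS1 (146), PYCR1 (131), GLUL (76.9), GOT1 (38.0), ARG2 (30.7), ALDH18A1 (26.3), GPT2 (11.3) and ASL (9.71 FPKM), where GPT2 and ASL overlapped. The SK-N-MC eKD2 libraries gave the same order without overlap of neighbours. ASS1 thus stood 8th of the 9 genes in RD-ES and 2nd in SK-N-MC, in control as in eKD2.

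Of the regulators and stress response genes examined, DDIT3, ATF3 and CHAC1 rose in RD-ES eKD2, and ATF4 mRNA itself did not pass the test. The list was drawn up with earlier results of these data known, which limits what the p values of its genes show. ATF4 was at 192 and 201 FPKM in RD-ES control and 232 FPKM in both RD-ES eKD2 libraries (log2 difference 0.24 ± 0.0622, limma adjusted p = 0.24). Its SK-N-MC values were 435 and 462 FPKM for control libraries and 414 and 445 FPKM for eKD2 (-0.063 ± 0.0622, limma adjusted p = 0.74). ATF4 is controlled largely at translation, which FPKM does not measure.

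DDIT3 (CHOP), a transcription factor downstream of ATF4, was at 40.4 and 43.1 FPKM in RD-ES control and 99.2 and 110 FPKM in RD-ES eKD2. It rose 2.51-fold (log2 difference 1.31 ± 0.0796, limma adjusted p = 0.0031). ATF3, a stress-induced repressor, was at 11.1 and 8.82 FPKM in RD-ES control and 52.3 and 55.1 FPKM in RD-ES eKD2, a rise of 5.4-fold (log2 difference 2.33 ± 0.112, limma adjusted p = 0.0012). CHAC1, a glutathione-degrading enzyme induced through ATF4, DDIT3 and ATF3, was at 3.02 and 3.63 FPKM in RD-ES controls against 44.3 and 56.3 FPKM with eKD2 (15.1-fold, log2 difference 3.56 ± 0.145, limma adjusted p = 7.8e-04). With RD-ES fitted alone, the adjusted p of DDIT3, ATF3 and CHAC1 was 0.16, 0.14 and 0.1, each the highest of the alternatives, whose lowest were 0.0021, 9.9e-04 and 6.0e-04. The ATF3 call was also lost with a replicate block (limma adjusted p = 0.058).

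In SK-N-MC the same 3 genes lay lower in both eKD2 libraries than in both controls and did not pass the test. DDIT3 was at 185 and 190 FPKM against 139 and 150 FPKM (log2 difference -0.37 ± 0.0796, limma adjusted p = 0.17). ATF3 was at 58.4 and 61.8 FPKM against 37.9 and 36.2 FPKM (-0.68 ± 0.112, limma adjusted p = 0.1), and CHAC1 at 96.9 and 107 FPKM against 50.0 and 57.1 FPKM (-0.92 ± 0.145, limma adjusted p = 0.1). The difference between the lines itself passed for all 3. SK-N-MC minus RD-ES was -1.68 for DDIT3 (limma adjusted p = 0.0052), -3.01 for ATF3 (limma adjusted p = 0.0019) and -4.48 for CHAC1 (limma adjusted p = 0.0016). With libraries of the same number as a block, the limma adjusted p of this difference was 0.075, 0.076 and 0.026, so that the call was lost for DDIT3 and ATF3. ASNS and ASS1 were higher in both eKD2 libraries of SK-N-MC than in both controls, with ratios of means of 1.25 and 2.25. Whether the levels of these regulators bear on the enzymes was not tested.

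**Figure D4:**
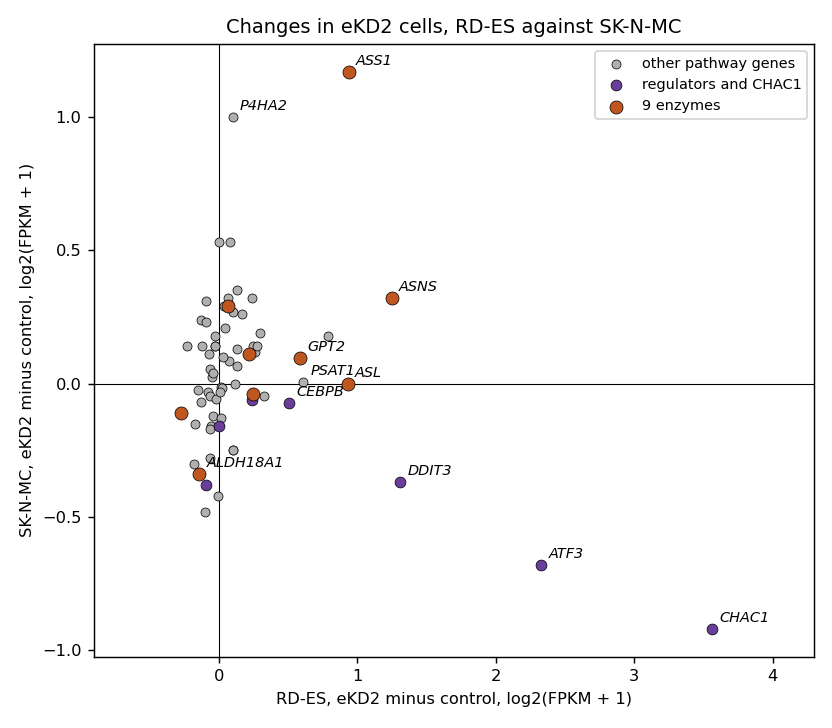
eKD2 minus control on the log2(FPKM + 1) scale in RD-ES (x axis) and SK-N-MC (y axis) for the 9 enzymes (orange), 7 regulators and stress response genes (purple) and 53 other genes of the pathways (grey). ASS1 lay high on both axes (0.94 and 1.17), ASNS mainly along the x axis (1.25 and 0.32), and DDIT3, ATF3 and CHAC1 to the right of and below 0.

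CEBPB, a partner of ATF4, was at 10.2 and 11.7 FPKM in RD-ES control and 17.0 and 15.1 FPKM in RD-ES eKD2 (log2 difference 0.51 ± 0.0979, limma adjusted p = 0.16). Its SK-N-MC values were 54.6 and 57.3 FPKM, then 54.4 and 51.9 FPKM (limma adjusted p = 0.83). MYC and HIF1A, which are known to bind at the ASS1 promoter, did not pass either. MYC was at 37.0 and 47.4 FPKM in RD-ES control and 36.7 and 41.8 FPKM in RD-ES eKD2 (limma adjusted p = 0.84), and at 169 and 198 FPKM against 135 and 145 FPKM in SK-N-MC (log2 difference -0.38 ± 0.144, limma adjusted p = 0.35). HIF1A means were 74.0 ± 3.02 and 74.3 ± 9.94 FPKM for RD-ES and 106 ± 2.83 and 95.4 ± 5.64 FPKM for SK-N-MC (SD, n = 2 each). Under hypoxia, the study reported less HIF1α protein in eKD cells without a fall in HIF1A mRNA. FPKM does not measure protein.

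Among 71 further genes of the same pathways, 53 passed the filter, and few of these passed the test. In RD-ES 1 of the 53 rose (limma adjusted p under 0.05) and 0 fell, beside 0.273% and 0.0666% of all genes, and at an unadjusted p under 0.05 the counts were 4 and 0, beside 8.64% and 3.82% of all genes. The median log2 difference of the 53 was 0.012. In SK-N-MC limma called 0 in either direction, beside 0.133% higher and 0.18% lower of all genes, and at an unadjusted p under 0.05 there were 6 higher and 5 lower, beside 5.77% and 7.31% of all genes. Their median there was 0.085. The shares of all genes given here also apply to the counts in the single lists below.

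The gene that rose in RD-ES was PSAT1, an aminotransferase of serine synthesis that uses glutamate and is a known ATF4 target. PSAT1 was at 72.3 and 73.6 FPKM in RD-ES control and 113 and 110 FPKM in RD-ES eKD2, 1.53-fold higher (log2 difference 0.61 ± 0.0512, limma adjusted p = 0.01). SK-N-MC controls held 422 and 426 FPKM and the eKD2 libraries 433 and 420 FPKM (0.0072 ± 0.0512, limma adjusted p = 0.98). The difference between the lines was -0.6 ± 0.0725 (limma adjusted p = 0.059). The call in RD-ES was lost in 7 of 16 alternatives, with an adjusted p of 0.23 for RD-ES fitted alone and a range of 0.0083 to 0.23 over the alternatives. Of these 7, 4 left out an RD-ES control or an SK-N-MC control library (limma adjusted p = 0.055 to 0.063).

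Of 11 measured genes of the urea cycle and arginine use, 0 were called by limma in either line, and at an unadjusted p under 0.05 RD-ES had 2 higher and SK-N-MC 0. These were OAT, which links ornithine to proline and glutamate, and CKB, brain creatine kinase. OAT was at 14.4 and 14.7 FPKM in RD-ES control and 19.2 and 17.1 FPKM in RD-ES eKD2 (log2 difference 0.3 ± 0.0988, limma adjusted p = 0.31). CKB was at 353 and 377 FPKM and then 484 and 432 FPKM (0.33 ± 0.0817, limma adjusted p = 0.22). DDAH2, which breaks down methylated arginine, was at 35.1 and 38.3 FPKM against 46.3 and 42.3 FPKM in RD-ES (limma adjusted p = 0.52). ARG1 and NOS1 were listed at 0 in all libraries, so ARG2 was the arginase measured.

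The 9 polyamine genes, which act downstream of arginase, gave 0 calls in either line, and at an unadjusted p under 0.05 there were 3 higher in SK-N-MC (SMOX, OAZ1 and the antizyme inhibitor AZIN1) and 0 in RD-ES. SMOX, spermine oxidase, was at 89.0 and 86.4 FPKM in SK-N-MC control and 106 and 113 FPKM in eKD2 (log2 difference 0.32 ± 0.0679, limma adjusted p = 0.17). OAZ1, the antizyme that restrains ornithine decarboxylase, was at 591 and 646 FPKM against 720 and 798 FPKM (0.29 ± 0.0746, limma adjusted p = 0.21). ODC1, ornithine decarboxylase itself, was at 255 and 252 FPKM in RD-ES control and 280 and 269 FPKM in RD-ES eKD2 (0.12 ± 0.0572, limma adjusted p = 0.47), and its groups overlapped in the other line.

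For aspartate and asparagine, 0 of 9 genes were called in either line, also at an unadjusted p under 0.05. Asparaginase ASRGL1 breaks down asparagine, the product of ASNS. It was at 30.7 and 26.3 FPKM in RD-ES control and 23.8 and 32.7 FPKM in RD-ES eKD2. Its SK-N-MC values were 34.0 and 37.5 FPKM for control libraries and 36.1 and 43.2 FPKM for eKD2. The ASNS to ASRGL1 ratio of FPKM was 1.83 and 2.39 in RD-ES control and 6.18 and 4.23 in RD-ES eKD2, and it lay between 11.2 and 15.4 in SK-N-MC, where control and eKD2 overlapped. GOT2, the mitochondrial counterpart of GOT1, was at 49.5 and 53.2 FPKM in RD-ES control and 27.9 and 27.8 FPKM in SK-N-MC control. The GOT1 to GOT2 ratio was below 1 in every RD-ES library (0.586 to 0.825) and above 1 in every SK-N-MC library (1.36 to 1.57).

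Among the 17 glutamine and glutamate genes, PSAT1 was the only call. At an unadjusted p under 0.05, NIT2 was also higher in RD-ES, while SK-N-MC had 2 higher (GFPT1 and ALDH5A1) and 3 lower (CTPS1, PPAT and GMPS). CTPS1, which takes its nitrogen from glutamine to make CTP, was at 199 and 215 FPKM in SK-N-MC control and 140 and 155 FPKM in eKD2 (log2 difference -0.48 ± 0.0786, limma adjusted p = 0.1). GFPT1, which feeds glutamine nitrogen into hexosamines, was at 45.2 and 44.5 FPKM against 67.8 and 62.6 FPKM (0.53 ± 0.0993, limma adjusted p = 0.15). NIT2, an amidase of the glutamine transaminase route, was at 33.8 and 28.3 FPKM in RD-ES control and 38.0 and 35.8 FPKM in RD-ES eKD2 (limma adjusted p = 0.39).

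Of 7 proline genes, limma called 0 in either line. At an unadjusted p under 0.05 RD-ES had 0, and SK-N-MC had 1 higher (P4HA2) and 2 lower (PEPD and PYCR3). P4HA2, a collagen prolyl hydroxylase, was at 7.35 and 6.73 FPKM in SK-N-MC control and 15.6 and 14.4 FPKM in eKD2 (2.14-fold, log2 difference 1.0 ± 0.181, limma adjusted p = 0.14). In RD-ES its groups overlapped, between 2.76 and 4.24 FPKM. PEPD, which frees proline from dipeptides, was at 22.1 and 22.2 FPKM in SK-N-MC control and 17.8 and 15 FPKM in eKD2 (-0.42 ± 0.101, limma adjusted p = 0.2).

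The genes whose pattern over the 8 libraries was most like that of ASS1, by Pearson's r of log2(FPKM + 1) among 10907 genes of a mean FPKM of 5 or more, were EIF1 (r = 0.9985), TSPAN7 (0.9974), TOM1L1 (0.9971), EFHD1 (0.9967) and ESRP1 (0.9965). ESRP1, an epithelial splicing regulator, had control and eKD2 means of 2.28 and 3.91 FPKM in RD-ES, and of 30.5 and 71.2 FPKM in SK-N-MC. For ASNS they were TSC22D3 (0.9967), ARHGAP5 (0.995), GRB14 (0.9943), ZSCAN30 (0.9938) and PPP1R15A (0.9936). PPP1R15A (GADD34), which restores translation after stress, had control and eKD2 means of 8.77 and 17.4 FPKM in RD-ES, and of 47.0 and 48.6 FPKM in SK-N-MC. The 8 libraries fall into 2 lines that differ widely in ASS1 and ASNS, so these r values describe the pattern only.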

How the data were processed

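RNA from 8 libraries was sequenced as poly-A selected single-end reads. The authors aligned reads with STAR to GRCh37 and computed FPKM with cufflinks and cuffnorm, and these deposited FPKM values were used as given. The study's own test used read counts, which were not used here, so its DESeq2 test was replaced by limma. Samples were grouped by the labels. For each symbol the row with the highest mean was kept. Values were analysed as log2(FPKM + 1) for genes whose mean FPKM was at least 1, with limma 3.58.1 (R 4.3.3), 4 groups in a single fit, a trended prior and Benjamini-Hochberg adjustment over 15020 genes. The smallest two-sided p of an exact permutation test is 0.333 for 2 against 2 libraries, as in eKD2 against control of a line. The procedure was tested on simulated data. Replicates correlated across genes with r between 0.946 and 0.954. The 9 enzymes, the gene lists and the motifs were chosen with earlier results of these data known.

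Named are the 9 enzymes, the regulators except 1 that is not reported here, LOXHD1, pathway genes past an adjusted p of 0.05 or among the 6 smallest p of a line, and the 5 genes most like ASS1 and ASNS. ASRGL1, GOT2, ARG1, NOS1, CTPS2, PRODH, AZIN1, ALDH5A1, PPAT, GMPS, PYCR3 and the marker genes were named outside this rule, for comparison, after their values were seen. Alternatives were another pseudocount, no filter, median scaling, quantile normalization, no trend, each line alone, a replicate block, summed rows and leaving out each library. The replicate numbers, from the titles, did not pair the libraries. Depth is not given with the FPKM values.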

Additional observations from a re-analysis of the deposited data

Results flagged for a closer look

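The effect of eKD2 differed between the lines, by a limma test of the difference over 15020 genes, for 3 stress response genes. These genes were listed with earlier results of these data known, which limits what their p values show. SK-N-MC minus RD-ES was -1.68 on the log2 scale for DDIT3 (limma adjusted p = 0.0052, range over the alternatives 0.0036 to 0.075), -3.01 for ATF3 (limma adjusted p = 0.0019, range 0.0019 to 0.076) and -4.48 for CHAC1 (limma adjusted p = 0.0016, range 0.0013 to 0.026). The highest of each range came from the fit with a replicate block, in which the call was lost for DDIT3 and ATF3. Each was higher in both RD-ES eKD2 libraries and lower in both SK-N-MC eKD2 libraries than in the controls of the line. No enzyme among the 9 went in opposite directions without overlap in the lines.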

How the results depend on the processing

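The eKD2 values of the 9 enzymes chose them, so the number past a limma adjusted p of 0.05 is a description and no test of them. It was 2 for RD-ES (ASS1 and ASNS) and 1 for SK-N-MC (ASS1), where 0.273% and 0.133% of all genes were called higher. In RD-ES it was 1 with no filter and with no trend, and 1 without any single library (range 1 to 1). In SK-N-MC it ranged from 0 to 1 without a library. With each line fitted alone, and with a replicate block, it was 0 in both lines. Of the other pathway genes 1 was called in RD-ES, against 0 with no trend, with the line alone and with the replicate block, and 0 to 2 without a library. For the difference between the lines 0 were called, against 1 with no filter (PSAT1, adjusted p = 0.044) and 0 to 1 without a library. Between SK-N-MC and RD-ES 7 of the 9 enzymes were called, and no alternative moved this count by over 1.5 times. GPT2 turned to -0.0042 (adjusted p = 0.99) in this comparison without RD-ES eKD2 replicate 1, and its range without a library was -0.0042 to 0.38. Deviations of same-numbered libraries from their group means correlated with r = 0.0363 and 0.0361 for RD-ES and SK-N-MC, so the numbers do not pair them. With the replicate block the genes called over all were 8 instead of 51 in RD-ES and 3 instead of 47 in SK-N-MC, against 3 and 8 with each line alone and 75 and 112 with no filter. At an unadjusted p under 0.05 the share of calls higher in eKD2 was, for RD-ES, 69.3% as deposited, 41.4% after median scaling and 52.6% after quantile normalization, and in SK-N-MC 44.1%, 50.5% and 46.0%. The other values of single genes were labelled the same in 1341 cases, weaker in 17, stronger in 2 and moved in 2. For eKD2 differences of the 9 enzymes, the same meant a shift smaller than the SD within groups. For other eKD2 differences it meant the same side of the threshold, and between the lines also the same direction. Small eKD2 differences could therefore change sign and still be labelled the same. Precision was limited by the 2 libraries a group.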

Other observations

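Beyond the enzymes above, 44 of the 53 other pathway genes differed between SK-N-MC and RD-ES (limma adjusted p under 0.05), 24 higher and 20 lower in SK-N-MC. This is 83.0% of them, where 68.8% of all genes differed. CTPS2, the paralog of CTPS1, was at 21.1 and 14.9 FPKM in RD-ES control and 19.5 and 16.9 FPKM in RD-ES eKD2. It was at 0.00993 and 0 FPKM in the SK-N-MC controls and 0.146 and 0.012 FPKM with eKD2 (log2 difference -4.19 ± 0.132, limma adjusted p = 2.4e-06). PSAT1 was 4.6-fold higher in SK-N-MC (log2 difference 2.22 ± 0.0362, limma adjusted p = 4.8e-07). PRODH, which opens proline breakdown, was at 0.27 to 1.2 FPKM in RD-ES, 3.15 and 3.32 FPKM in SK-N-MC control and 5.08 and 5.15 FPKM with eKD2 (log2 difference between the lines 1.61 ± 0.189, limma adjusted p = 4.1e-04).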
